A study of Homo sapiens with 4 samples.

Results

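The transcripts of the cytosolic translation initiation and elongation factors were followed in HCC1954 cells with and without a hairpin against the palmitoyltransferase gene ZDHHC15. Genes were taken from the protein-coding rows of the gene count table by symbol, as those that start with EIF1 to EIF6 or with EEF1 or EEF2, leaving out the EIF2AK kinases. This gave 67 genes among the 58735 genes of the table, of which 19951 are protein-coding. A filter on low counts kept 61 of the 67, and the other 6 are accounted for below.

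The cells belong to a human breast cancer line with amplified ERBB2. RNA was sequenced from 4 samples, 2 carrying a scrambled hairpin as the control (shCON) and 2 carrying a hairpin that targets ZDHHC15 (shZDHHC15), all from GIPZ vectors. The labels describe the knockdown as stable in one place and as a transient transfection harvested after 36 h in another, and they do not say whether the numbered samples are separate cultures or clones, or how many hairpin sequences were used. The p-values therefore measure the spread between these samples, which may be technical. Reads of ZDHHC15 itself numbered 17617 and 15716 in shCON, and none were counted in either shZDHHC15 sample, where a count of 0 allows up to 3.

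Translation starts when eIF2 brings the initiator tRNA to the small ribosomal subunit, eIF3 and the eIF1 proteins hold that subunit open for scanning, and eIF4F, made of the cap-binding protein eIF4E, the scaffold eIF4G and the helicase eIF4A, loads it onto the capped end of an mRNA. eIF2B recharges eIF2 with GTP, the 4E-BP proteins block eIF4E, and eIF5B joins the large subunit. In elongation eEF1A delivers aminoacyl-tRNAs, the eEF1B subunits recharge eEF1A, eEF2 moves the ribosome along, and eIF5A, which carries the modified residue hypusine, helps at slow peptide bonds. Many mRNAs of this machinery begin with a 5′ terminal oligopyrimidine (TOP) run, a C followed by pyrimidines at the first base, through which mTORC1 controls their translation.

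Samples held 17560982 to 19118704 counts in total. The translation factors took 1.81% (1.80 to 1.81%) and 1.82% (1.82 to 1.83%) of the counts in the shCON samples. In the shZDHHC15 samples they took 1.73% (1.72 to 1.73%) and 1.76% (1.76 to 1.77%). The 95% Wilson intervals in brackets cover counting error only. These shares hold 0 counts for EEF1G and 129 to 236 per sample for EIF4A1, genes whose sequence is mostly shared with other genes. Whether the shares are complete was not tested. The epithelial marker list (EPCAM, CDH1, KRT8, KRT18, KRT19, ERBB2, GRB7) was detected in full, and its summed level was 16524 to 17729 CPM (counts scaled to a common library size) in shCON and 10256 to 10306 CPM in shZDHHC15, with 5 of 7 genes lower and KRT19 higher. Of the leukocyte list 1 of 5 genes passed the filter (CD14, higher) with CD3E at 0 in every sample, and the list summed to 0.889 to 0.987 CPM in shCON and 1.48 to 1.99 CPM in shZDHHC15. Of the fibroblast list 1 of 4 passed (COL1A1, higher; list sum 5.81 to 7.17 against 8.51 to 11.5 CPM), and of the endothelial list 2 of 3 (PECAM1 and CDH5, both higher; list sum 48.4 to 49.98 against 96.7 to 101.6 CPM). The part of these markers in the results was not tested.

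CPM values below are scaled by TMM factors, fold changes are log2 of shZDHHC15 over shCON, and each adjusted p is that of edgeR's quasi-likelihood test, corrected by the Benjamini-Hochberg method over all 15817 genes tested. A gene is called higher or lower at an adjusted p under 0.05. Levels per length are CPM per kilobase of all annotated exon bases of a gene, which need not match the transcripts expressed. Whether the groups overlap is given as description only, since with 2 samples per group an exact permutation test cannot go below 0.333. Factors that did not pass, such as EEF1A1, EIF4G1 and EIF4E, also had groups that did not overlap. The share of such genes among all genes tested was not counted. Of the 61 translation factors tested, 3 were higher (EEF2K, EIF5B and EIF3A), 20 were lower and 38 did not pass, 20 of these with a negative and 18 with a positive fold change. Over all genes tested, 21.7% were higher and 20.3% lower (42.0% in either direction), against 4.92% and 32.8% of the translation factors (37.7% in either direction). The factors are abundant transcripts, and 37 of them were among the 3954 tested genes with the highest mean CPM. Of those 3954 genes 24.6% were higher and 34.2% lower (58.7% in either direction), against 5.41% and 32.4% of the 37 factors, so the share that fell was near the background of abundant genes and the share that rose was below it. The median fold change was -0.13 over the 61 factors, with quartiles of -0.42 and 0.08, and 0.02 over all genes tested.

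Most changes were small. Only EIF5A2 changed by more than 1 on the log2 scale, where 11.3% of all genes tested, and 6.63% of the 3954 most abundant, were called beyond that size, and 7 of the 23 called factors changed by more than 1.5-fold. In bulk RNA a lower level per cell and fewer cells with a transcript cannot be told apart. Without shZDHHC15 replicate 1 the number of lower factors was 13 instead of 20. Fewer of all genes tested were called lower there as well. When library sizes alone were used for scaling, 6 factors were higher and 17 lower. Rises were then 26.1% of the calls among the factors, against 13.04% with TMM factors. Over all genes tested, rises were 60.7% of the calls with library sizes alone and 51.6% with TMM factors. Of the 20 factors that fell, 13 passed under each of the 14 other settings tried, and none of the 3 that rose did.

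**Figure D1:**
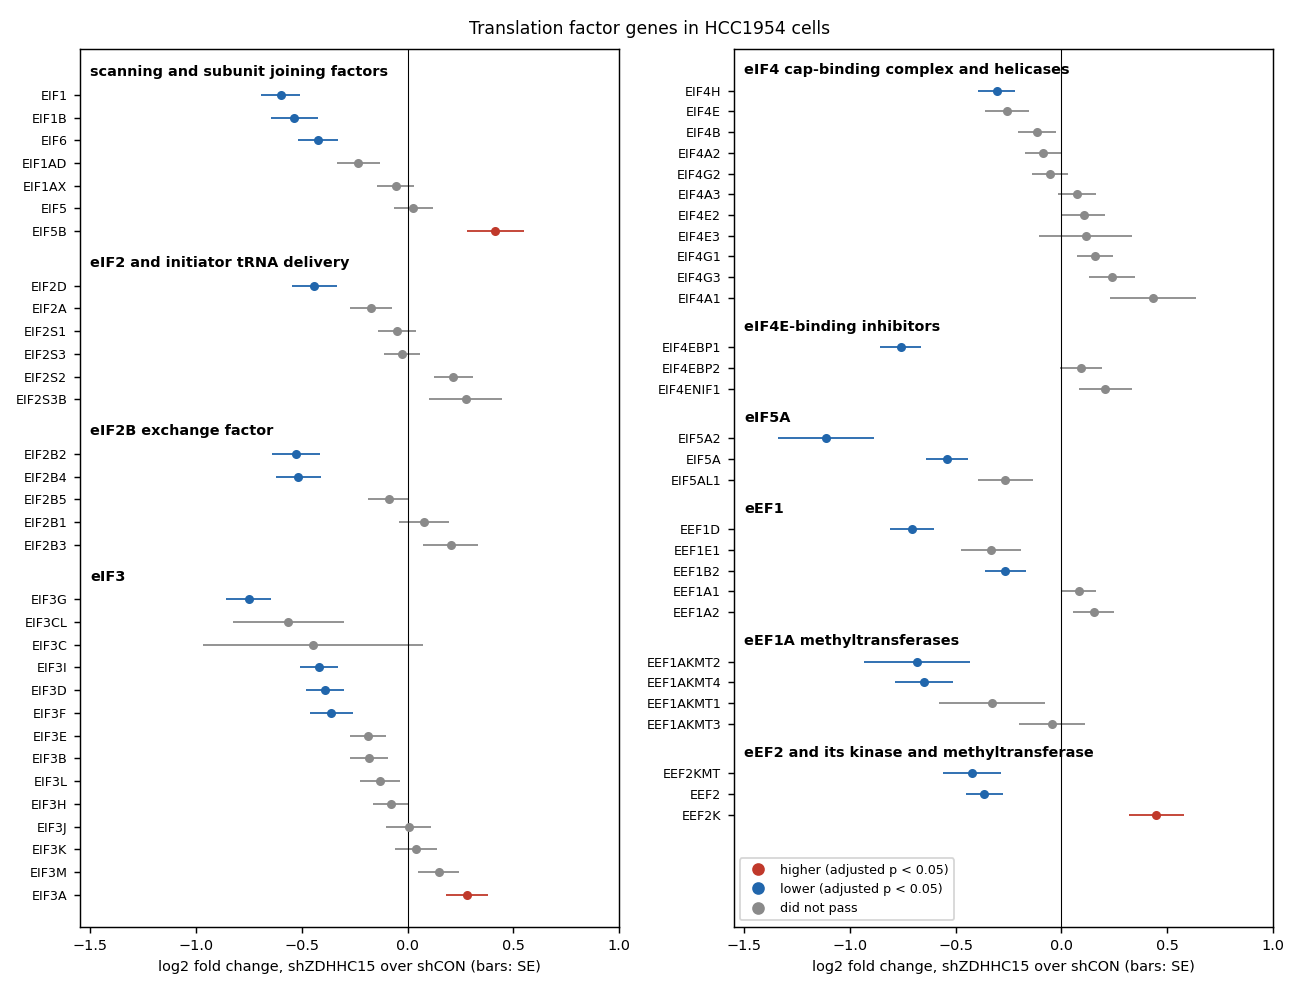
Log2 fold change (horizontal axis, shZDHHC15 over shCON, n = 2 per group) of the 61 tested translation factor genes, grouped by complex, with bars for the standard error. Genes that passed an adjusted p of 0.05 are red where higher (3) and blue where lower (20), and the 38 others are grey.

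The TOP run gives a sequence feature by which the factors can be compared independently of their counts. In the RefSeq promoter table of GRCh38.p14, which held 54 of the 67 genes, 13 genes (24.1%) had an annotated start at a C followed by at least 4 further pyrimidines on the transcribed strand, against 5.14% of all genes in the table and 7.34% of the tested protein-coding genes. Allowing the run to begin within 5 bases of the start, the share was 46.3% of the factors and 25.2% of all genes. Windows of 15 bases before and 15 bases from the start are printed 5′ to 3′ on the transcribed strand for 8 of the 13, chosen as the 5 that fell and the 3 from the same complexes with the highest level per length that did not pass, with the pyrimidine run from the start base in capitals.
EEF2, chr19:3985449-3985478, minus strand: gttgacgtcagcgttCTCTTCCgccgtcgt
EEF1B2, chr2:206159880-206159909, plus strand: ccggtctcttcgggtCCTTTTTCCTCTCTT
EIF3D, chr22:36529152-36529181, minus strand: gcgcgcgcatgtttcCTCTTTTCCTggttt
EIF3F, chr11:7987322-7987351, plus strand: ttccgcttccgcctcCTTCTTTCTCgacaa
EIF2D, chr1:206612451-206612480, minus strand: ggtttccagccgggcCCTTTTCgcggccgg
EEF1A1, chr6:73521018-73521047, minus strand: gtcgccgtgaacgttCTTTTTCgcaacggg
EIF3K, chr19:38619173-38619202, plus strand: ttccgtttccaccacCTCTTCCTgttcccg
EIF2S3, chrX:24054941-24054970, plus strand: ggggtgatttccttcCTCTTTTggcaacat

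Calls and medians were close with and without such a start, and an annotated start need not be the one used in these cells. All 13 passed the filter, and 5 were lower, 0 higher and 8 not called, with a median log2 fold change of -0.11. Among the 35 tested factors in the table without the run, 11 were lower, 2 higher and 22 not called, with a median of -0.09, and the other 13 tested factors had no promoter in the table. Runs of similar length stood at the starts of EEF2, which fell, and of EEF1A1, which did not pass. By the list of known TOP mRNAs among the factors, written from general knowledge, 4 of 9 tested genes were lower and 1 higher, with a median of -0.19.

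In the list of factors for scanning and subunit joining, 3 of 7 tested genes were lower (EIF1, EIF1B and EIF6), EIF5B was higher and 3 did not pass. The median was -0.23, the value of EIF1AD, which the list also holds. EIF1, whose protein guards start codon selection, was measured at 649.9 and 711 CPM in shCON and 431 and 466 CPM in shZDHHC15. Both shZDHHC15 samples were below both shCON samples, and the change was -0.60 ± 0.090 (SE, n = 2 per group; adjusted p = 9.50e-05). Its paralog EIF1B was found at 40.2 and 41.4 CPM in shCON and 27.9 and 28.4 CPM in shZDHHC15, again with no overlap, and changed by -0.54 ± 0.11 (adjusted p = 0.00154). The level of EIF1 per length over that of EIF1B was 8.53 and 9.05 in shCON and 8.16 and 8.65 in shZDHHC15, so the pair fell in nearly constant proportion. EIF6, which keeps the large subunit from joining early, fell by 0.42 on the log2 scale (adjusted p = 0.00234).

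EIF5B, the GTPase that joins the subunits, was measured at 146 and 100.1 CPM in shCON and 159 and 169.5 CPM in shZDHHC15. The shZDHHC15 samples lay above both controls, but shCON replicate 1 was nearer to them than to shCON replicate 2. The change was 0.41 ± 0.14 (SE, n = 2 per group; adjusted p = 0.0235). Without shCON replicate 2, which had the lowest level, it was 0.16, adjusted p = 0.270. EIF5, EIF1AX and EIF1AD did not pass, at log2 fold changes of 0.027, -0.056 and -0.23.

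The 3 genes that rose code for long transcripts. Their longest coding transcripts were 5777 to 7388 bases long with a median of 6646, against a median of 1977 bases for the 20 genes that fell and 3070 for the 38 that did not pass. GC content of these transcripts had a median of 43.2% in the genes that rose, 52.5% in those that fell and 45.6% in the others. Over the 61 factors, which share the same 4 libraries, Spearman's rho of the fold change was 0.42 with length and -0.28 with GC content. Over 12934 tested protein-coding genes it was 0.32 and -0.16. The difference between the 2 control samples also followed these properties, with rho for shCON replicate 2 minus replicate 1 of 0.69 with GC content and -0.38 with length over the factors. When offsets for GC content and length were entered in the fit, an alternative chosen after seeing the data, none of the 3 rises passed. EEF2K was then at 0.12, adjusted p = 0.393, EIF5B at 0.14, adjusted p = 0.242, and EIF3A at -0.037, adjusted p = 0.658. Of the 20 falls, 19 passed in that fit, all but EEF1B2, while 14 further factors were lower. That fit covered 12934 protein-coding genes, of which 3972 were lower and 2456 higher, with a median over them of -0.080. Without the offsets 2919 of the same 12934 genes were lower and 3138 higher. Their median was then 0.022, with the 3 rises and 20 falls of the factors unchanged. The offsets were fitted on all 4 samples without regard to group. They therefore also take out any change with the hairpin that follows length or GC content. This fit cannot tell such a change from a technical one.

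Of the 6 genes for eIF2 and initiator tRNA delivery, EIF2D was lower and 5 did not pass, with a median of -0.04. EIF2D, a factor that can place tRNA without eIF2, was measured at 56.8 and 61.9 CPM in shCON and 42.9 and 44.5 CPM in shZDHHC15. Its groups did not overlap and the change was -0.44 ± 0.11 (SE, n = 2 per group; adjusted p = 0.00404). EIF2S3, the eIF2 gamma subunit and the gene with the highest level per length in this group, was found at 561 and 525 CPM in shCON and 536 and 531 CPM in shZDHHC15. Its groups overlapped, with a change of -0.026 ± 0.086 (adjusted p = 0.839) that turned to 0.049 with library sizes alone. The alpha subunit EIF2S1 was at -0.052 and the beta subunit EIF2S2 at 0.22 (adjusted p = 0.0747), so no subunit of the eIF2 trimer passed the test.

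In eIF2B, the guanine nucleotide exchange factor of eIF2, 2 of 5 subunit genes were lower and 3 did not pass, with a median of -0.09. EIF2B2, the beta subunit, was measured at 44.4 and 49.2 CPM in shCON and 31.6 and 33.3 CPM in shZDHHC15, and changed by -0.53 ± 0.11 (SE, n = 2 per group; adjusted p = 0.00181). EIF2B4, the delta subunit, fell by 0.52 on the log2 scale (adjusted p = 0.00144). Beta and delta belong with alpha to the regulatory part of eIF2B. The alpha gene EIF2B1 did not pass (0.077), nor did the catalytic genes EIF2B3 (0.20) and EIF2B5. EIF2B5, with the highest level per length of the 5, was found at 105 and 115 CPM in shCON and 102 and 105 CPM in shZDHHC15, with overlapping groups and a change of -0.089 ± 0.097 (adjusted p = 0.491).

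eIF3, the scaffold of the initiation complex, is listed with 14 genes, of which 4 were lower (EIF3G, EIF3I, EIF3D and EIF3F), EIF3A was higher and 9 did not pass. The median was -0.19, and 10 of the 14 fold changes were negative. EIF3G, an RNA-binding subunit, was measured at 154 and 184 CPM in shCON and 94.8 and 106 CPM in shZDHHC15. The change of EIF3G was -0.75 ± 0.11 (SE, n = 2 per group; adjusted p = 6.18e-05), and no shZDHHC15 sample reached the lower shCON sample. EIF3I, which partners EIF3G in the complex and had the highest level per length, was found at 248 and 269 CPM in shCON and 189.9 and 196 CPM in shZDHHC15 and changed by -0.42 ± 0.091 (adjusted p = 0.00191). Further falls were those of EIF3D, the subunit that can bind the cap, at -0.39 ± 0.090 (adjusted p = 0.00287), and of EIF3F at -0.36 ± 0.10 (adjusted p = 0.00972). Without shZDHHC15 replicate 1 neither passed (EIF3D -0.34, adjusted p = 0.0649; EIF3F -0.26, adjusted p = 0.182).

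EIF3A, the largest subunit, was measured at 251 and 212 CPM in shCON and 283 and 279 CPM in shZDHHC15. The shZDHHC15 samples were close to each other and above both controls, with a change of 0.28 ± 0.098 (SE, n = 2 per group; adjusted p = 0.0312). It did not pass without shCON replicate 2 (0.15, adjusted p = 0.256), without shZDHHC15 replicate 1 (0.27, adjusted p = 0.146) or without shZDHHC15 replicate 2 (0.29, adjusted p = 0.110), and not with upper-quartile scaling (0.25, adjusted p = 0.0523). Within eIF3 the level per length in shCON ranged from 1.28 CPM per kilobase for EIF3CL to 149.8 for EIF3I.

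EIF3C, a core subunit, varied widely within both groups. Its counts were 338 and 1336 in shCON, and 250 and 1129 in shZDHHC15. Sample 2 held 4.27-fold the level of sample 1 in shCON and 4.28-fold in shZDHHC15, so the samples split by number and not by hairpin. Set against the sample of the same number, shZDHHC15 was at 0.724 and 0.726 of shCON, although the labels do not pair the numbers. The fitted change was -0.45 ± 0.52 (adjusted p = 0.522), and it ranged from -1.86 to 0.93 when each sample was left out in turn. With the replicate number as a block it was -0.46 ± 0.11 (adjusted p = 0.00153) and passed as lower. EIF3C shares 96.8% of its 50-base words with other genes. Its near-copy EIF3CL had 82, 58, 45 and 58 counts in the same order of samples and a fold change of -0.56 ± 0.26 (adjusted p = 0.0994). How reads were split between the copies is not given in the sources used here, and its part in the spread was not tested. Over all tested genes, 4 were more than 2-fold apart between numbers 1 and 2 in the same direction in both groups, EIF3C among them.

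**Figure D2:**
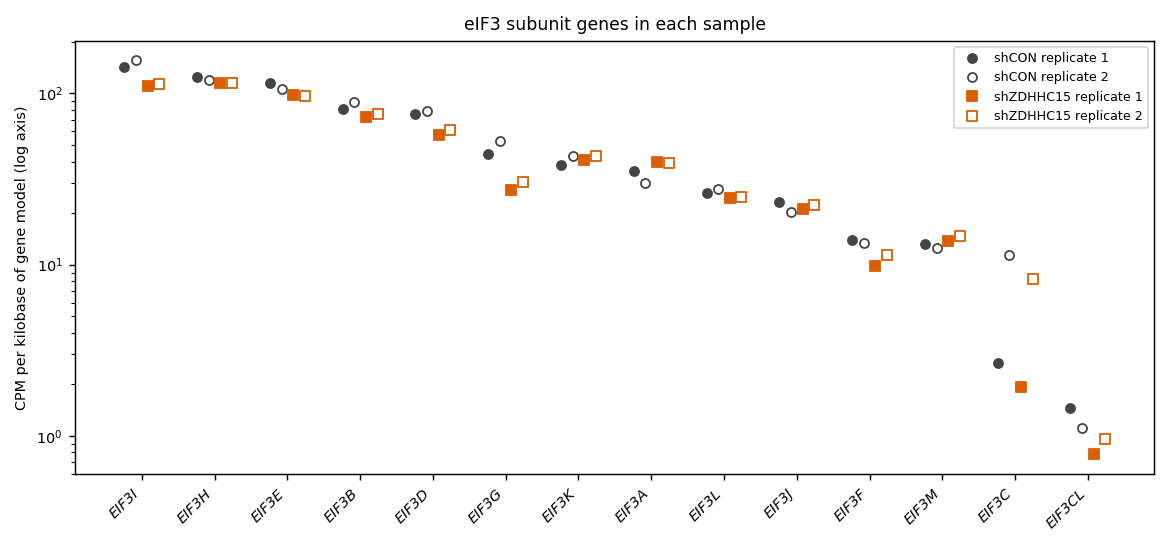
Level of the 14 eIF3 genes in each of the 4 samples, as CPM per kilobase of gene model (vertical log axis), ordered by the shCON mean; filled symbols are replicate 1 and open symbols replicate 2. For EIF3C the open symbols lie 4.27-fold (shCON) and 4.28-fold (shZDHHC15) above the filled ones, and for EIF3G both shZDHHC15 squares lie below both shCON circles.

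Few genes of the cap-binding complex and its helicases were called. Of 11 tested genes on this list, EIF4H was lower, 0 were higher and 10 did not pass. The median was 0.07, the value of EIF4A3, which the list also holds. EIF4H, a cofactor of the helicase eIF4A, was measured at 553 and 594 CPM in shCON and 465 and 462 CPM in shZDHHC15 and had the highest level per length of the group. It changed by -0.31 ± 0.086 (SE, n = 2 per group; adjusted p = 0.0104), and did not pass without either shZDHHC15 sample (adjusted p = 0.0872 without replicate 1 and 0.0819 without replicate 2). The cap-binding gene EIF4E was found at 61.6 and 58.5 CPM in shCON and 51.7 and 48.9 CPM in shZDHHC15. Its groups did not overlap, and at -0.26 ± 0.10 (adjusted p = 0.0616) it lay close to the threshold. It passed as lower with upper-quartile factors (adjusted p = 0.0376), with the replicate block (0.0338), without shCON replicate 2 (0.0384) and with GC and length offsets (-0.72, adjusted p = 5.75e-05). EIF4E2, a related cap-binding protein known for repression, was measured at 55.8 and 55.1 CPM in shCON and 60.3 and 59.0 CPM in shZDHHC15 (0.11 ± 0.10, adjusted p = 0.432), and EIF4E3 at 4.50 and 4.74 CPM in shCON and 5.53 and 4.48 CPM in shZDHHC15 (0.11 ± 0.22, adjusted p = 0.712). EIF4E per length over EIF4E2 was 0.563 and 0.542 in shCON and 0.438 and 0.422 in shZDHHC15, and over EIF4E3 10.5 and 9.44 in shCON and 7.16 and 8.35 in shZDHHC15. Neither ratio overlapped between the groups, and the ratios were not tested. The exon bases behind these levels numbered 14067 for EIF4E and 7177 for EIF4E2. In CPM, EIF4E lay above EIF4E2 in both shCON samples and below it in both shZDHHC15 samples.

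The scaffold gene EIF4G1 was at 1094 and 1092 CPM in shCON and 1241 and 1199 CPM in shZDHHC15, both shZDHHC15 samples slightly above both controls, with a change of 0.16 ± 0.083 (adjusted p = 0.140). Its paralog EIF4G3 was at 49.8 and 47.7 CPM in shCON and 61.2 and 54.1 CPM in shZDHHC15 with a fold change of 0.24 ± 0.11 (adjusted p = 0.0888), and EIF4G1 exceeded it per length 25.6 and 26.6-fold in shCON and 23.6 and 25.8-fold in shZDHHC15. Both passed as higher with library sizes alone (adjusted p = 0.0214 for EIF4G1 and 0.0340 for EIF4G3), EIF4G3 also with the replicate block (0.0485), and both were slightly negative with GC and length offsets (-0.020 and -0.035). The helicase gene EIF4A2 was at 396 and 374 CPM in shCON and 354 and 371 CPM in shZDHHC15 (-0.086 ± 0.087, adjusted p = 0.460). The counts of EIF4A1, usually the more abundant eIF4A gene, were low in every sample, at 7.35 and 7.65 CPM in shCON and 8.16 and 12.02 CPM in shZDHHC15. In the annotation 48.6% of its exon bases are overlapped on the same strand by other genes and 100% of its 50-base words occur in other genes. What part of its reads the row holds was not tested. Its fitted change of 0.43 ± 0.20 (adjusted p = 0.0983) went to -0.0014 once the counts of its pseudogenes were added. Without shZDHHC15 replicate 1 it was 0.68, adjusted p = 0.0142, and without shZDHHC15 replicate 2 0.12, adjusted p = 0.753.

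Of the inhibitors of eIF4E, EIF4EBP1 was lower and EIF4EBP2 and EIF4ENIF1 did not pass. EIF4EBP1 codes for 4E-BP1, the mTORC1 substrate that blocks eIF4E from binding eIF4G, and was measured at 158 and 176 CPM in shCON and 96.5 and 101 CPM in shZDHHC15. Both shZDHHC15 samples were well below both controls, and the change was -0.76 ± 0.097 (SE, n = 2 per group; adjusted p = 2.21e-05), the lowest adjusted p among the 61 factors. EIF4EBP2, coding for 4E-BP2, was found at 127 and 123 CPM in shCON and 142 and 124 CPM in shZDHHC15, with overlapping groups and a change of 0.092 ± 0.099 (adjusted p = 0.486), against -0.25, adjusted p = 0.0148 with GC and length offsets. Per length, EIF4EBP1 was 8.46 and 9.66 times the level of EIF4EBP2 in shCON and 4.58 and 5.51 times in shZDHHC15. EIF4EBP3 did not pass the filter, with 3 and 9 counts in shCON and 8 in each shZDHHC15 sample.

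**Figure D3:**
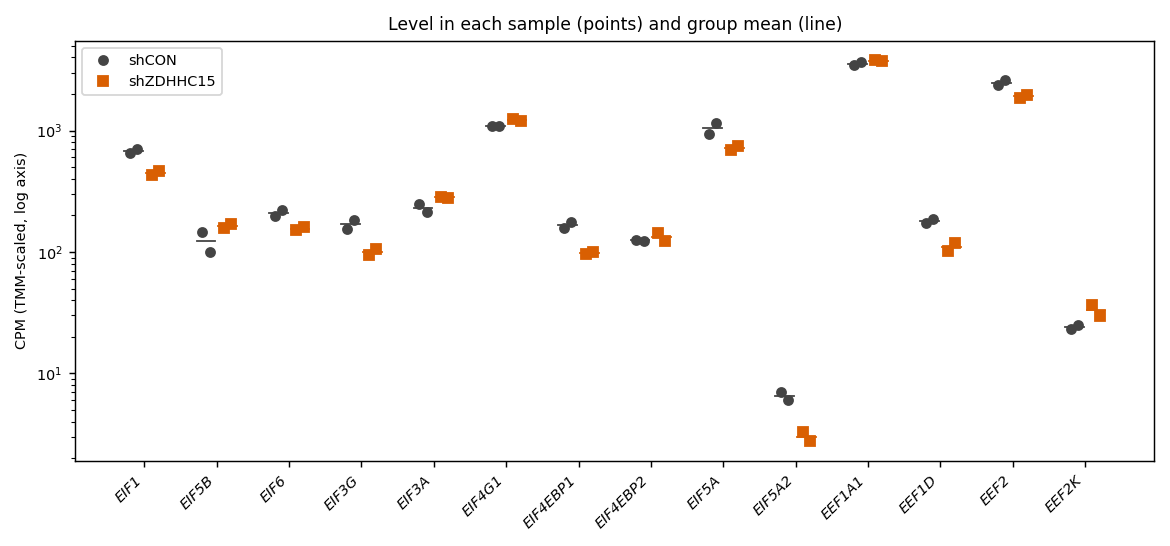
Level of 14 translation factor genes in each sample, as TMM-scaled CPM (vertical log axis), with shCON as dark circles, shZDHHC15 as orange squares and a line at each group mean. The groups lie apart for EIF1, EIF6, EIF3G, EIF4EBP1, EIF5A, EIF5A2, EEF1D and EEF2, all lower in shZDHHC15, and overlap for EIF4EBP2. They also lie apart for EIF5B, EIF3A, EIF4G1, EEF1A1 and EEF2K, all higher in shZDHHC15, of which EIF4G1 and EEF1A1 did not pass.

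Both eIF5A genes fell. EIF5A was measured at 940.0 and 1144 CPM in shCON and 691 and 741 CPM in shZDHHC15 and changed by -0.54 ± 0.10 (SE, n = 2 per group; adjusted p = 5.58e-04). EIF5A2, an isoform gene known for amplification in several cancers, had a far lower level, at 7.02 and 5.99 CPM in shCON and 3.28 and 2.75 CPM in shZDHHC15, and changed by -1.11 ± 0.23 (adjusted p = 0.00125), the largest change of any factor. Per length EIF5A was 266 and 379.7 in shCON and 419 and 535 in shZDHHC15 times the level of EIF5A2, and these ratios did not overlap between the groups. EIF5AL1, whose sequence is close to that of EIF5A, did not pass (-0.27 ± 0.13, adjusted p = 0.118). In the annotation 31.7% of the 50-base words of EIF5A occur in other genes.

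In the eEF1 list, 2 of 5 tested genes were lower (EEF1D and EEF1B2), 0 higher and 3 not called, with a median of -0.27. The 3 not called were EEF1A1, EEF1A2 and EEF1E1, the last at -0.33 (adjusted p = 0.0707). EEF1A1, which codes for the GTPase that delivers aminoacyl-tRNAs, was the most counted of all 67 genes, at 3474 and 3657 CPM in shCON and 3825 and 3719 CPM in shZDHHC15. The samples of EEF1A1 spanned a narrow range and the change was 0.081 ± 0.083 (SE, n = 2 per group; adjusted p = 0.463). The tissue-restricted paralog EEF1A2 was found at 129 and 147 CPM in shCON and 152 and 155 CPM in shZDHHC15 with a fold change of 0.15 ± 0.097 (adjusted p = 0.224), and it passed as higher with GC and length offsets (0.27, adjusted p = 0.00494). EEF1A1 was 22.2 and 20.5 in shCON and 20.7 and 19.8 in shZDHHC15 times the level of EEF1A2 per length. Neither eEF1A gene passed without those offsets, while 2 exchange factor genes were lower. EEF1D, the delta subunit, was measured at 174 and 186 CPM in shCON and 101 and 119 CPM in shZDHHC15. The change of EEF1D was -0.71 ± 0.10 (adjusted p = 7.43e-05). In the annotation genes on the opposite strand overlap 34.0% of its exon bases, and the strand setting of the counts is not known. EEF1B2 changed by -0.27 ± 0.096 (adjusted p = 0.0371), and did not pass without shCON replicate 2 (adjusted p = 0.112), shZDHHC15 replicate 1 (0.329) or shZDHHC15 replicate 2 (0.0548). Whether the exchange factors differ from eEF1A in their change was not tested.

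The gamma subunit gene EEF1G was listed at 0 in every sample. Of its exon bases 99.9% are overlapped on the same strand by AP002990.1, a protein-coding gene of the annotation with 97, 108, 114 and 140 counts, and 98.7% of its 50-base words occur in other genes. The table thus gives no level for EEF1G. EIF4E1B and the readthrough genes EEF1AKMT4-ECE2 and EEF1E1-BLOC1S5 were also at 0 in all 4 samples. With EIF1AY, EIF4EBP3 and EEF1G these are the 6 genes that were not tested.

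Of the 4 lysine methyltransferases that modify eEF1A, 2 were lower and 2 did not pass, with a median of -0.49. Of their 50-base words, 24.5% for EEF1AKMT4 and 37.7% for EEF1AKMT2 occur in other genes. EEF1AKMT4 was measured at 27.9 and 31.3 CPM in shCON and 16.9 and 20.8 CPM in shZDHHC15. It changed by -0.65 ± 0.14 (SE, n = 2 per group; adjusted p = 0.00159). EEF1AKMT2 was near the filter, at 4.39 and 4.09 CPM in shCON and 2.36 and 2.90 CPM in shZDHHC15, with a change of -0.68 ± 0.25 (adjusted p = 0.0399) that did not pass without shCON replicate 1 (adjusted p = 0.108), shCON replicate 2 (0.0641) or shZDHHC15 replicate 1 (0.213), or by DESeq2's Wald test (0.201).

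EEF2, its kinase gene EEF2K and its methyltransferase gene EEF2KMT all passed, with EEF2 and EEF2KMT lower and EEF2K higher. Of the 50-base words of EEF2KMT, 32.4% occur in other genes, and genes on the opposite strand overlap 29.3% of its exon bases. EEF2, the translocase, had the highest level per length of its group, at 2374 and 2585 CPM in shCON and 1872 and 1981 CPM in shZDHHC15. The change was -0.36 ± 0.086 (SE, n = 2 per group; adjusted p = 0.00352), with both shZDHHC15 samples below both controls, and without shZDHHC15 replicate 1 it was -0.33, adjusted p = 0.0754. EEF2K, the kinase that phosphorylates eEF2 and thereby slows elongation, was found at 23.3 and 25.3 CPM in shCON and 36.4 and 29.9 CPM in shZDHHC15. Its change was 0.45 ± 0.13 (adjusted p = 0.0125), the largest rise among the factors, but without shZDHHC15 replicate 1, which had the highest level, it was 0.30, adjusted p = 0.198. EEF2KMT, which methylates eEF2, was measured at 18.9 and 18.4 CPM in shCON and 13.5 and 14.3 CPM in shZDHHC15, changed by -0.42 ± 0.14 (adjusted p = 0.0230), and did not pass without shZDHHC15 replicate 1 (adjusted p = 0.139) or replicate 2 (0.0589).

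Around the factors, 72 further genes of the translation machinery and its control were listed, of which 71 were tested, 14 were higher and 18 lower, with a median of -0.10. Over all genes tested, 21.7% were higher and 20.3% lower. The counts in the short lists that follow are therefore description only. Among the eIF2 kinases and phosphatase subunits, 2 of 6 were higher and 1 lower: EIF2AK2, which codes for the double-stranded RNA sensor PKR, rose by 2.00 and PPP1R15A, the stress-induced phosphatase subunit for eIF2, fell by 1.44 on the log2 scale. All 9 genes for the hypusine and diphthamide modifications of eIF5A and eEF2 had negative fold changes and 4 passed, led by the diphthamide gene DPH5 (-1.14). Of 13 genes of mTORC1 and the kinases that control initiation, 4 were higher, led by MTOR (0.62), and 3 lower, led by MLST8 (-0.56). Both called genes among the 3 other initiation helpers were higher, led by the helicase gene DDX3X (0.57), and both among the 7 tested genes for termination and recycling were lower, led by MCTS1 (-0.46). Of 5 genes for poly(A)-binding proteins and partners PAIP2 was higher (0.40) and PABPC4 lower (-0.39). Of 6 mitochondrial factors TSFM was higher (0.40) and 3 were lower, led by TUFM (-0.49). In the multisynthetase complex 2 of 10 genes were higher, led by EPRS (0.35), and AIMP2 was lower (-0.63). Of 12 other aminoacyl-tRNA synthetases 2 were higher, led by WARS (1.78), and 3 lower, led by FARSA (-0.56).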

How the data were processed

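RNA of 2 shCON and 2 shZDHHC15 samples of HCC1954 cells was sequenced from NEBNext Ultra libraries. The authors deposited 1 table of raw read counts per gene for 58735 genes, not normalized, with gene lengths and biotypes. The submitters' processing notes name HISAT2, StringTie, SAMtools and hg38. Roles and versions, the counting tool and its strand setting are not given in the sources used here, so overlapping genes and near-identical copies may share or lose counts. All identifiers, positions and symbols matched GENCODE 29, from which lengths, GC content, exon overlaps and shared 50-base words were computed. All 4 columns of counts were used. Totals ranged from 17560982 to 19118704 counts. A count of 0 allows up to 3 counts, for counting error only.

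Groups came from the sample labels. Low counts were removed with filterByExpr, which kept 15817 genes. The quasi-likelihood test of edgeR 4.0.16 (glmQLFit and glmQLFTest, with TMM factors, limma 3.58.1 and R 4.3.3) was then run, with Benjamini-Hochberg adjustment over all tested genes. The common biological coefficient of variation was 0.0877. On data first simulated with gene-wise dispersions, the fit gave more false calls than the threshold allows. The simulation was then changed to trended dispersions, where false calls were near the threshold. Which of these is nearer to the present data was not tested. The share of false calls among all genes called here was not tested either, and may exceed the threshold. Calls close to the threshold are the less secure ones. Each standard error is the fold change divided by the root of its F value. Alternatives were other scalings, DESeq2 1.42.0, other filters, a replicate block, pseudogene counts added, each sample left out, and, added after seeing the data, GC and length offsets and the same 12934 protein-coding genes without them, both with the TMM factors above.

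Given with sample values were, in each list of factors, the called genes with the largest rise and fall, the gene with the highest level per length, called genes beyond 1 on the log2 scale and both genes of paralog pairs. Of further translation genes, the called genes with the largest rise and fall were given by fold change only. EIF3C, EIF3CL, EEF1G, EIF4EBP3 and the falls of EIF6, EIF2B4, EIF3D, EIF3F and EEF1B2, with fold changes of other factors, were added after their values were seen. The members and lists were chosen with earlier results of these data known.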

Additional observations from a re-analysis of the deposited data

How the results depend on the processing

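Of the 61 factors, 3 were called higher and 20 lower, with a median log2 fold change of -0.13. With library sizes alone, 6 were higher (median -0.056), with the replicate block 5 higher, with no filter on low counts 0 higher by edgeR (3 at an unadjusted p under 0.05, and 3 by DESeq2's Wald test), and with GC and length offsets, chosen after seeing the data, 1 higher (EEF1A2) and 33 lower (median -0.23). The offset fit covered 12934 protein-coding genes, of which 2456 were higher and 3972 lower. Without the offsets 3138 of them were higher and 2919 lower, and of the factors 3 were higher and 20 lower. Over all genes tested, 3427 of 15817 were higher with TMM factors, 3926 with library sizes alone and 3723 with the replicate block. With no filter on low counts 2282 of 30168 genes were higher by edgeR. The median was -0.14 with DESeq2 size factors and -0.16 with upper-quartile factors. Leaving out one sample each gave 2 to 3 higher and 13 to 22 lower, with medians from -0.18 to -0.13. The fits that leave a group with 1 sample assume that it varies like the other group. The direction turned with GC and length offsets for EEF1A1 (-0.089), EIF3A (-0.037), EIF4E2 (-0.0050), EIF4E3 (-0.30), EIF4EBP2 (-0.25, adjusted p = 0.0148), EIF4G1 (-0.020) and EIF4G3 (-0.035), with library sizes alone for EIF2S3 (0.049), and with pseudogene counts added for EIF4A1 (-0.0014). Leaving out one sample each turned EIF3C (-1.86 to 0.93), EIF4E3 (-0.044 to 0.25) and EIF4EBP2 (-0.014 to 0.18). The replicate numbers do not pair the samples by their labels. Deviations of same-numbered samples from the group means correlated by 0.03, and the block gave 5 higher and 24 lower. The cause of these differences was not tested. With 2 samples per group an exact permutation test of 1 gene cannot go below 0.333, so calls rest on the spread shared across genes.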

Other observations

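Beside EIF3C, the genes more than 2-fold apart between samples 1 and 2 in the same direction in both groups were SPCS2P4 (48 and 192 counts in shCON, 53 and 377 in shZDHHC15), CBSL (283 and 12 counts in shCON, 333 and 21 in shZDHHC15) and ATP5MC1P4 (26 and 7 counts in shCON, 28 and 9 in shZDHHC15). SPCS2P4 and ATP5MC1P4 are annotated as processed pseudogenes. They were chosen after their values were seen.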
